A study of Mus musculus with 4 samples.

Results

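RNA that came down with IGF2BP2 in mouse BMDMs, which are macrophages grown in culture from bone marrow, was sequenced, and the peaks described here lie mainly in 5' untranslated regions (5' UTRs), the stretch of an mRNA between its cap and its start codon. A peak was included when 5' UTR had the largest share of its bases in the authors' own region annotation. A tie with coding sequence (CDS), non-coding exon or intron counted as 5' UTR, which brought in 4 peaks of replicate 1 and 6 of replicate 2, and no tie with 3' UTR occurred. These rules gave 363 of 15511 peaks in replicate 1 (2.34%, exact binomial 95% interval 2.11 to 2.59) and 522 of 22570 in replicate 2 (2.31%, 2.12 to 2.52), or 885 of 38081 in all. They lay in 341 and 483 genes and held 3484 and 6768 tags, of 189393 and 324456 tags in all peaks of each list. The 5' UTR share, though the largest, was under 50% in 25 of the 363 peaks (6.89%) and 57 of the 522 (10.9%). The study has 4 samples: IGF2BP2 immunoprecipitation (IP) libraries 1 and 2, each with its own peak list, and 2 input libraries that were not analysed here. The labels give no strain, age, sex or treatment for the mice or cells, and do not say whether the replicates were separate cultures. They name different antibodies for the IP, one raised against IGF2BP2 among the sample characteristics and one against Flag in the protocol.

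IGF2BP2 belongs to a family of RNA-binding proteins first known for binding the 5' UTR of an IGF2 mRNA. The family is also described as reading m6A, a methyl mark on adenosine. A 5' UTR is where the small ribosomal subunit loads and scans for the start codon, so proteins and RNA structures there can set how often an mRNA is translated. A well-studied case is the iron-responsive element, a stem and loop in the 5' UTRs of ferritin mRNAs that iron regulatory proteins bind when iron is scarce.

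The strongest recurring 5' UTR peaks are shown first by their start codons, because the peaks named lie across them. Each line gives 30 bases of the principal transcript in GENCODE release 21 for mouse (build GRCm38), 5' to 3', with the start codon in capitals.
Fth1 (chr19:9982856-9982885, + strand): gccccgccgccaccATGaccaccgcgtctc
Lpl (chr8:68880739-68880768, + strand): gggtgcaccgggagATGgagagcaaagccc
Nrp2 (chr1:62704191-62704220, + strand): cctctctgtcaaaaATGgatatgtttcctc
Mtss1 (chr15:59081512-59081541, - strand): gccgcgccgggaaaATGgaggctgtgatcg
Gnai2 (chr9:107635202-107635231, - strand): cggcggacggcaggATGggctgcaccgtga
Arf6 (chr12:69372780-69372809, + strand): gctcttccgacgcgATGgggaaggtgctat
Atp2a2 (chr5:122501670-122501699, - strand): gggcccccgcagccATGgagaacgctcaca
The peaks of BC005537 did not reach its start codon at the position that recurred, so its line is centred on the replicate 2 summit, the base with most tags, in a capital.
BC005537 (chr13:24802234-24802263, + strand): ggcctgggacgtgggAgaacccgccacctt
The Nrp2 start codon lay in the replicate 2 peak only, and the other 6 start codons shown lay in the peaks of both libraries.

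The ferritin mRNAs carry the letters CAGTG, the fixed part of the iron-responsive element's loop, in their 5' UTRs. The lines below show it in capitals within 30 bases; these genes were singled out after their values were seen.
Fth1 (chr19:9982732-9982761, + strand): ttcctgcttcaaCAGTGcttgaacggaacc
Ftl1 (chr7:45459778-45459807, - strand): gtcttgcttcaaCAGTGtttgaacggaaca
In Fth1 the letters began at base 99 of a 224-nt 5' UTR, and in Ftl1 at base 90 of a 253-nt 5' UTR. These letters alone are common, since 24.5% of 20517 annotated 5' UTRs held them on the sense strand. Fth1, which encodes the ferritin heavy chain that stores iron, had the strongest 5' UTR peak of replicate 1 and the strongest recurring one of both libraries. It held 124 tags in replicate 1 (9982713 to 9982983 on chromosome 19) and 163 tags in replicate 2 (9982706 to 9982945). Both peaks ran over the CAGTG letters and on through the start codon, with 58% and 68% of their bases in the 5' UTR and the remainder in CDS. Their summits lay 68 and 71 nt before the start codon. Replicate 1 had a second Fth1 peak with 214 tags, and replicate 2 listed no other Fth1 peak. Ftl1, which encodes the ferritin light chain, had a 5' UTR peak over its CAGTG letters in replicate 2 only, with 3 tags (45459744 to 45459932 on chromosome 7), the lowest count the lists hold. Of the iron genes with a sense peak, a peak on the strand of the gene, 1 of 7 in replicate 1 and 2 of 9 in replicate 2 had a 5' UTR peak, against 6.87% and 7.96% of all genes with a sense peak.

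Lpl encodes lipoprotein lipase, which releases fatty acids from lipoproteins. Its 5' UTR peak held 114 tags in replicate 1 (68880561 to 68880840 on chromosome 8) and 108 tags in replicate 2 (68880562 to 68880840). The ends differed by 1 base between libraries. In each, 68% of the peak was 5' UTR and the summit lay 57 nt past the start codon. In replicate 1 it was the strongest of 3 Lpl peaks and held 56.2% of the gene's 203 tags. In replicate 2 it held 11.8% of 916 tags, and the strongest of the 6 Lpl peaks had 252.

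BC005537 had peaks along most of a 1724-nt 5' UTR in exon 1. Replicate 1 gave 3 of them, with 23 tags at 24801715 to 24801991 on chromosome 13, 73 tags at 24802124 to 24802857 and 35 tags at 24803003 to 24803509. Replicate 2 gave a single long 5' UTR peak of 128 tags at 24801722 to 24802694, which overlapped the first and second of these. The third, which covered the start codon, had no overlapping peak in replicate 2.

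**Figure D1:**
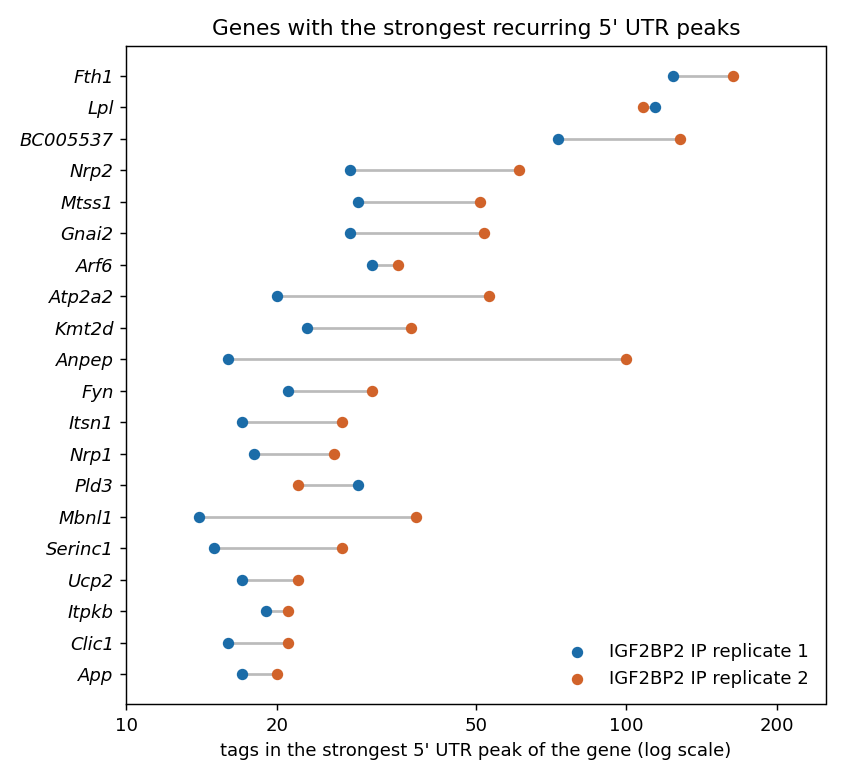
Tags in the strongest 5' UTR peak of each of the 20 genes highest by mean rank, among genes whose 5' UTR peaks overlapped between the libraries (log axis), with IP replicate 1 in blue and IP replicate 2 in orange. Fth1, Lpl and BC005537 stand at 73 tags or more in both libraries, and all genes except Lpl and Pld3 had more tags in replicate 2.

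The other genes of the 20 are arranged here by known role, an arrangement made by hand that follows neither their rank nor a test. Nrp2 and Nrp1 encode neuropilins, co-receptors for semaphorins and vascular growth factors. Nrp2 had 28 tags in replicate 1 and 61 in replicate 2, and Nrp1 had 18 and 26. Gnai2, an inhibitory G protein subunit, had 28 and 52 tags in peaks whose summits lay 38 and 101 nt past the start codon. Fyn, a Src-family kinase, had 21 and 31 tags, wholly within the 5' UTR of exon 1 in both libraries. Itpkb, a kinase of inositol trisphosphate, had 19 and 21 tags, and Anpep, the surface aminopeptidase CD13, had 16 and 100. Anpep spread most between the libraries, with a 182-nt peak in replicate 1 and a 757-nt peak in replicate 2. App, the amyloid precursor protein gene, closed the 20 with 17 and 20 tags. Its peaks were 43% and 47% 5' UTR, with 39% and 32% intron. The replicate 2 peak of Gnai2 was 36% 5' UTR.

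Some encode proteins of membrane traffic and the cytoskeleton. Arf6, a small GTPase of endocytic recycling, had 31 and 35 tags, and this was the only Arf6 peak in each list. Mtss1, which encodes a membrane-bending actin regulator, had 29 and 51 tags. Itsn1, an endocytic scaffold gene, had 17 and 27 tags in its strongest 5' UTR peaks, which lay at different places. Pld3, which encodes a lysosomal member of the phospholipase D family, had 29 and 22 tags in a 94-nt peak with the same ends in both libraries. Serinc1 had 15 and 27 tags.

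The ion and metabolite genes were Atp2a2, the calcium pump of the endoplasmic reticulum (20 tags in replicate 1 and 53 in replicate 2), Clic1, a chloride channel gene (16 and 21), and Ucp2, a mitochondrial carrier of the uncoupling protein family (17 and 22). Of nuclear regulators, Kmt2d, a histone H3 lysine methyltransferase gene, had 23 and 37 tags and Mbnl1, a splicing regulator gene, had 14 and 38. The Kmt2d summits fell 50 and 46 nt before the start codon, although neither peak reached CDS. Of the 20 genes, 18 had more tags in replicate 2, and the strongest 5' UTR peak was also the gene's strongest peak of any kind in 6 genes of each library. Over all genes with a 5' UTR peak that was so for 189 of 341 (55.4%) and 223 of 483 (46.2%), ties included. The peak covered the start codon in 13 genes in replicate 1 and 15 in replicate 2.

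Tags of the 5' UTR peaks were few. The median was 7 tags in replicate 1 (interval 6 to 8) and 9 in replicate 2 (8 to 10), against 8 and 9 for CDS peaks and 7 and 8 for all peaks. The median length was 206 and 208 nt, against 143 and 150 nt for CDS peaks. Peaks of under 6 tags made up 30.9% and 20.3% of 5' UTR peaks, against 32.5% and 24.3% of all peaks. Among 5' UTR peaks, 4 in replicate 1 (1.1%) and 14 in replicate 2 (2.68%) had 50 or more tags. That compares with 1.69% and 3.12% of all peaks, and 1.6% and 2.59% of CDS peaks. The highest in replicate 2 was Fam20c, which encodes a kinase of secreted proteins, with 349 tags over 2339 nt. Its maximum height, the tags stacked at 1 base, was 61, against 146 for Fth1, whose 5' UTR peak was the highest by that measure in both libraries (89 in replicate 1).

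A 5' UTR peak of replicate 1 was overlapped in replicate 2 in 150 of 363 cases (41.3%, 36.2 to 46.6), with overlap meaning at least 1 bp on the same strand. Across all peaks of that library the share was 34.8%, and for CDS peaks it was 46.3%. A 5' UTR peak of replicate 2 was overlapped in replicate 1 in 143 of 522 cases (27.4%, 23.6 to 31.4), against 23.6% of all peaks and 31.4% of CDS peaks. The shares were thus between those of all peaks and of CDS peaks in both libraries, and none of these differences was tested. Where the overlap had to span at least 50% of each peak, 28.7% and 19.7% of 5' UTR peaks were overlapped, against 23.9% and 16.4% of all peaks.

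The overlap moved with tag count. In replicate 1 it was 18.8% for 5' UTR peaks of 3 to 5 tags, 39.7% for 6 to 9, 63.2% for 10 to 19 and 78.3% for 20 or more. CDS peaks of the same classes had 17.3%, 41.2%, 63.0% and 80.0%. In replicate 2 the 5' UTR peaks had 10.4%, 20.7%, 30.4% and 62.0%, and CDS peaks 7.97%, 18.3%, 38.6% and 67.2%. At equal tags, the CDS values lay within the intervals of the 5' UTR values in 7 of the 8 classes. The exception was replicate 2 peaks of 10 to 19 tags, with 30.4% (23.6 to 37.9) against 38.6%. The 5' UTR peaks were longer in every class. In replicate 1 the median lengths were 164 against 114 nt at 3 to 5 tags and 403 against 211 nt at 20 or more. The part of length in the overlap was not tested.

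**Figure D2:**
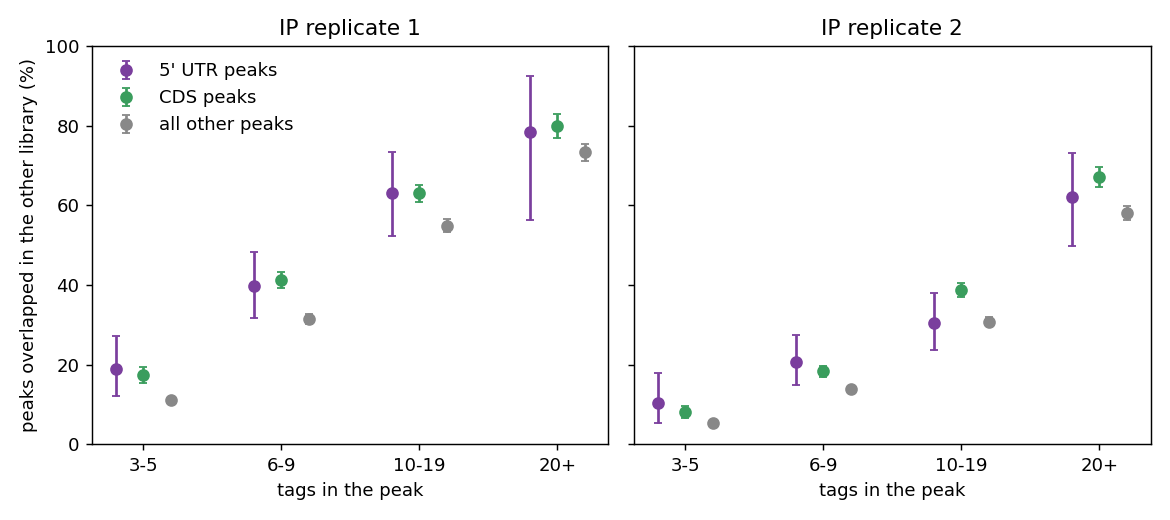
Share of peaks overlapped in the other library (vertical axis, percent) by tags in the peak, for 5' UTR peaks (purple), CDS peaks (green) and all peaks other than 5' UTR peaks, CDS peaks included (grey), with exact binomial 95% intervals as bars. The 5' UTR share climbs to 78.3% in replicate 1 and 62.0% in replicate 2 at 20 or more tags.

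Overlapping 5' UTR peaks formed 117 pairs in 110 genes. The median pair had 9 tags in replicate 1 and 12 in replicate 2, and replicate 2 was higher in 81 pairs, lower in 26 and equal in 10. Across pairs the tag counts followed each other, with Spearman's rho of 0.646 and Pearson's r of 0.747 on log2 tags (n = 117 pairs from 1 pair of libraries, which share gene abundance). The summits lay a median of 29 nt apart, and within 50 nt in 65.8% of pairs.

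**Figure D3:**
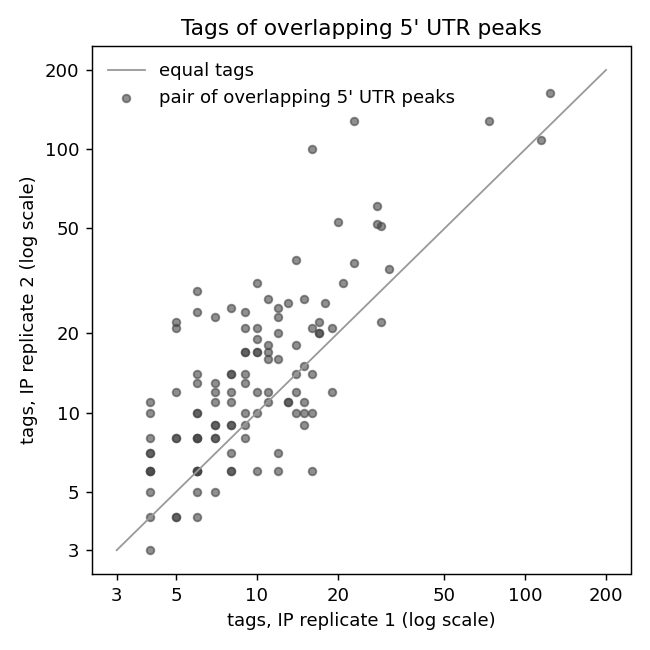
Tags of the 117 pairs of overlapping 5' UTR peaks, with IP replicate 1 on the horizontal and IP replicate 2 on the vertical axis (both log), and a line at equal tags. Of the pairs, 81 lie above the line, 26 below and 10 on it.

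By gene, 114 had a 5' UTR peak in each library, or 33.4% of such genes in replicate 1 and 23.6% in replicate 2. The same share over all genes with a sense peak was not worked out, so these shares show nothing particular to 5' UTR peaks. In 4 of the 114 genes the 5' UTR peaks did not overlap each other: Araf, Vwf, Rptor and Bmpr2. Rptor, which encodes the raptor subunit of mTORC1, had 24 tags at 119603625 to 119603971 on chromosome 11 in replicate 1 and 13 tags at 119603080 to 119603410 in replicate 2. The replicate 1 peak was overlapped in replicate 2 by a peak of 15 tags that lay mainly in CDS.

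Where a 5' UTR peak recurred, the overlapping peak was not always given to the 5' UTR. The strongest overlapping peak was a 5' UTR peak for 114 of the 150 in replicate 1 (76.0%) and 113 of the 143 in replicate 2 (79.0%). It was mainly intronic for 26 (17.3%) and 17 (11.9%), and mainly CDS for 9 (6.0%) and 10 (6.99%). Csf1r, the receptor that macrophages need for growth, illustrates this. Its 140-nt 5' UTR peak of replicate 1 held 32 tags and began at 61105888 on chromosome 18. In replicate 2 the overlapping peak ran from 61105869 to 61108246 with 176 tags, and was mainly intron. Ctsb, the lysosomal protease cathepsin B, had a 5' UTR peak of 55 tags in replicate 2, overlapped by a mainly intronic peak of 30 tags in replicate 1. Itgb1, the integrin beta 1 gene, had 54 tags in its replicate 2 peak, overlapped by a mainly intronic peak of 37 tags in replicate 1. Igf1, which encodes insulin-like growth factor 1 and was named after its values were seen, had 31 tags in replicate 1, against 119 tags of a mainly intronic peak in replicate 2. Whether such tags came from spliced or unspliced RNA was not tested.

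The strongest 5' UTR peaks with no overlapping peak in the other library were those of Nfe2l1 (40 tags), Hnrnpd (40) and BC005537 (35) in replicate 1, and Fam20c (349), Tet3 (90) and Pabpc1 (54) in replicate 2. The Tet3 peak had a 5' UTR share of 0.45 and a CDS share of 0.42. Nfe2l1 encodes a transcription factor of proteasome genes, Hnrnpd an AU-rich element binding protein, Tet3 a DNA demethylation enzyme and Pabpc1 the cytoplasmic poly(A)-binding protein. Each of these genes had sense peaks elsewhere in the other library, the strongest of which had 38 tags for Nfe2l1, 33 for Hnrnpd, 125 for Fam20c, 69 for Tet3 and 42 for Pabpc1.

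CDS was also present in 158 of the 363 peaks of replicate 1 (43.5%, 38.4 to 48.8) and in 242 of the 522 of replicate 2 (46.4%, 42.0 to 50.7). The start codon of the principal transcript lay inside 153 of those 158 and 231 of those 242. Peaks with CDS were overlapped in the other library in 79 of 158 cases in replicate 1 (42.0 to 58.0%) and 80 of 242 in replicate 2 (33.1%, 27.2 to 39.4), against 34.6% (28.1 to 41.6) and 22.5% (17.7 to 27.8) of 5' UTR peaks without CDS. They also had more tags, with medians of 8 and 11 against 6 and 8, and the part of the tag count in the overlap was not tested. Peaks wholly in 5' UTR numbered 144 (39.7%) and 170 (32.6%), and were overlapped in 33.3% and 24.7% of cases. Intron was also present in 69 and 125 peaks. In 41 (11.3%) and 80 (15.3%), over 2% of the bases were in no listed region; 24 of the 41 and 44 of the 80 reached past the annotated 5' end of their gene.

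At the edge of the rule, 19 peaks in replicate 1 and 35 in replicate 2 had a 5' UTR share within 5 percentage points above the next region, ties included, with medians of 9 and 10 tags. Another 14 and 23 fell short by no more than that, with medians of 8 and 10 tags. The strongest just inside were Gnai2 in replicate 1 and Kcnn4 in replicate 2, and the strongest just outside were Ppp1r9b and Rreb1.

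Where the peaks lay relative to the start codon is partly set by their choice, since a peak mainly in CDS was left out. Summits lay in an exon of the principal transcript in 258 peaks of replicate 1 (71.1%) and 388 of replicate 2 (74.3%). Of these, 146 (56.6%, 50.3 to 62.7) and 215 (55.4%, 50.3 to 60.4) were within 100 nt of the start codon on either side. Among summits inside the principal 5' UTR, 107 of 215 (49.8%, 42.9 to 56.6) and 157 of 324 (48.5%, 42.9 to 54.0) were in its last 100 nt, and 32 (14.9%, 10.4 to 20.4) and 45 (13.9%, 10.3 to 18.1) in its first 100 nt. These windows share bases in 5' UTRs shorter than 200 nt. For summits inside the principal 5' UTR the median place was 101 and 106 nt before the start codon, at 65.0% and 66.7% of the way along 5' UTRs with a median length of 352 and 334 nt. The input libraries were not analysed, so the part of read coverage along 5' UTRs in this placement was not tested.

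**Figure D4:**
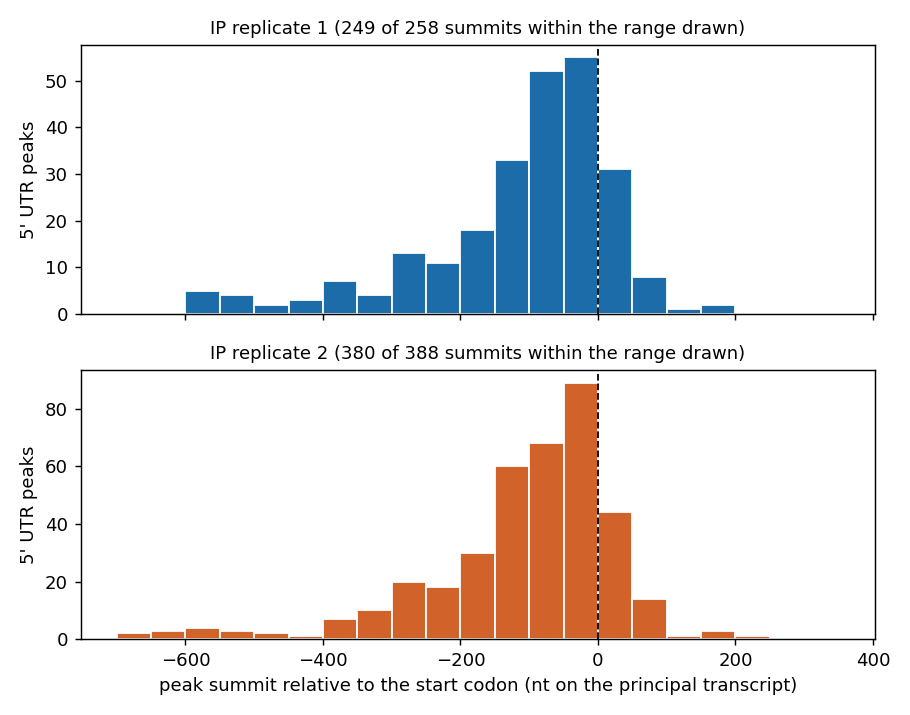
Number of 5' UTR peaks (vertical axis) by the distance of the summit from the start codon on the principal transcript in 50-nt bins (horizontal axis, nt; negative is upstream, dashed line at the start codon), for IP replicate 1 above and IP replicate 2 below. The fullest bin is the 50 nt just before the start codon, with 55 summits in replicate 1 and 89 in replicate 2.

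The first exon of the principal transcript held the summit in 222 peaks of replicate 1 (61.2%) and 314 of replicate 2 (60.2%). The second exon held 30 (8.26%) and 59 (11.3%). In 77 (21.2%) and 91 (17.4%) peaks the summit was in an intron of the principal transcript and in 23 (6.34%) and 38 (7.28%) upstream of it. Some summits placed in introns, as in Pld3 and Chmp2a, were an end base of a peak with no intron listed. The Lgals3bp summits lay at 118401785 in an intron in replicate 1 and at 118401788 in the 5' UTR in replicate 2. Whether peak starts lie 1 base off the exon edges was not tested. The intron shares may therefore be too high, and the exon shares above too low. The Pparg peak was among those with a summit upstream. Pparg encodes a lipid-sensing nuclear receptor with alternative promoters, and its only 5' UTR peak, in replicate 2, held 6 tags at 115361077 to 115361370 on chromosome 6, upstream of the principal transcript. It was 51% 5' UTR, with the rest in no listed region, and no replicate 1 peak overlapped it. Tsc1, which encodes the mTORC1 inhibitor hamartin, and Igf2bp2 had no 5' UTR peak in either list.

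Genes with a 5' UTR peak had long 5' UTRs. Their principal 5' UTR had a median of 280 nt in replicate 1 and 286 nt in replicate 2, against 175 and 174 nt for genes with other sense peaks only. A 5' UTR of at least 200 nt was found in 69.0% and 73.4% of them, against 43.7% and 43.8%. A longer 5' UTR offers more bases in which a peak can fall, and the part of length was not tested. An upstream ATG, which can start a short reading frame ahead of the main one, occurred in 64.5% and 64.1% of these 5' UTRs, against 51.5% and 50.6%. Within length classes the direction varied. Among 5' UTRs of up to 100 nt the share was 23.5% (10.7 to 41.2, 34 genes) and 40.0% (22.7 to 59.4, 30 genes), against 18.6% and 17.5%. Among those of 101 to 200 nt it was 38.0% and 33.0%, against 43.1% and 41.9%. Among those of 201 to 400 nt it was 73.6% (65.0 to 81.1) and 66.0% (59.1 to 72.5), against 70.4% and 70.0%, and in longer ones 84.8% and 87.9%, against 90.5% and 90.8%.

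The bases around a start codon affect how well scanning ribosomes recognise it. In genes whose start codon a 5' UTR peak covered, a purine stood 3 bases before it in 89.5% (83.6 to 93.9) of 153 genes in replicate 1 and 91.3% (86.9 to 94.6) of 230 in replicate 2, against 87.1% and 87.4% of genes with other sense peaks only. A G just after the start codon occurred in 53.6% (45.4 to 61.7) and 48.7% (42.1 to 55.4), against 53.5% and 54.5%. Such a purine together with a G just after the start codon occurred in 46.4% and 45.2%, against 46.9% and 47.9%.

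The GC content of 5' UTR peaks was close to that of 5' UTRs and above that of CDS peaks. Among peaks lying within 1 exon, whose sequence could be read from transcripts (195 in replicate 1 and 236 in replicate 2), the median GC content was 65.0% and 65.2%, against 52.9% and 52.7% in CDS peaks. Whole principal 5' UTRs had medians of 64.9% and 65.8% in genes with a 5' UTR peak, against 66.2% and 66.1% in genes with other sense peaks only. The letters GGAC, a core of the m6A consensus, were sought on the sense strand and occurred in 70.8% (63.8 to 77.0) and 68.2% (61.9 to 74.1) of these peaks, against 64.4% and 63.5% of CDS peaks weighted to the same lengths. Per kb the peaks held 6.08 and 5.92 GGAC, against 5.63 and 5.33 in CDS peaks. Whole principal 5' UTRs of genes with a 5' UTR peak held 5.34 and 5.21. Those of genes with other sense peaks only held 5.09 and 5.23. The peaks with sequence came from only part of the genes with a 5' UTR peak, and some of them reached into CDS. Some peaks with no intron listed, such as those of Pld3, Chmp2a and Galnt6 in replicate 1, were not counted as within 1 exon. Whether this came from peak starts lying 1 base off the exon edges was not tested. GGACT, which contains GGAC, occurred 1.37 and 1.28 times per kb in the peaks. In whole principal 5' UTRs of genes with a 5' UTR peak it occurred 1.41 and 1.22 times per kb. It was in 23.6% and 25.4% of the 5' UTR peaks, against 23.1% and 24.1% of CDS peaks at the same lengths. TGGAC, which also contains GGAC, was less frequent than in CDS peaks. It was in 19.5% (14.2 to 25.8) and 22.5% (17.3 to 28.3) of the 5' UTR peaks, against 29.3% and 29.6% of CDS peaks at the same lengths. Per kb it occurred 0.978 and 1.18 times in 5' UTR peaks, against 1.73 and 1.59 in CDS peaks. Whole principal 5' UTRs of genes with a 5' UTR peak held fewer TGGAC than the peaks, with 0.808 and 0.851 per kb. No test was made of these letter counts, and they do not show methylation.

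Most of these genes had peaks elsewhere too. In replicate 1, 59.5% of the genes with a 5' UTR peak also had a CDS peak, 37.2% an intronic peak and 25.5% a 3' UTR peak. Over all genes with a sense peak a CDS peak was present in 55.0%, an intronic peak in 52.5% and a 3' UTR peak in 1241 of 4962. In replicate 2 the shares with CDS, intronic and 3' UTR peaks were 61.5%, 47.8% and 29.4% of genes with a 5' UTR peak, against 56.3%, 56.7% and 26.8% of all genes with a sense peak. The 5' UTR peak was the gene's only sense peak in 82 genes (24.0%) and 99 genes (20.5%), and held a median of 37.5% and 29.0% of the gene's tags.

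Across gene groups, 5' UTR peaks were scattered and few. The counts below are of genes with a 5' UTR peak among those with any sense peak, beside the 6.87% and 7.96% over all genes. A gene counted in only 1 library could still have an overlapping peak of another region in the other library, as Tln1 and Cd36 did. Among 20 ribosomal proteins and related mRNAs of the 5' terminal oligopyrimidine class, whose translation mTORC1 controls through the 5' UTR, 12 had a sense peak in replicate 1 and 14 in replicate 2, of which 0 and 1 had a 5' UTR peak (Rps14, 9 tags). Translation factors had 2 of 17 and 2 of 14, and none in both: Eif4g1 (10 tags) and Denr (6) in replicate 1, and Pabpc1 (54) and Eif4g2 (20) in replicate 2. Of genes known for upstream reading frames, 1 of 7 and 2 of 8 had such a peak. Azin1, an inhibitor of antizyme in polyamine control, had 15 tags in replicate 1 and 9 in replicate 2 at the same 138-nt position. Ppp1r15a, a stress-response phosphatase subunit gene, had 10 tags in replicate 2. Atf4, the best-known of these genes, had no 5' UTR peak.

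Lysosomal genes had 1 of 25 and 4 of 28. Lamp2, a lysosomal membrane protein gene, had 12 tags in replicate 1 and 20 in replicate 2 in overlapping peaks, while Ctsb (55), Lgmn (29) and Cd63 (8) had theirs in replicate 2 only. Actin and adhesion genes had 2 of 26 and 3 of 25, none in both, among them Tln1 (20 tags in replicate 1), Itgb1 (54 in replicate 2), Pfn1 (28 in replicate 2) and Msn (20 in replicate 2). The Tln1 peak was overlapped in replicate 2 by a mainly intronic peak of 53 tags. Macrophage identity genes had 4 of 21 in replicate 1, namely Csf1r (32 tags), Runx1 (16), Spi1 (8) and Cd36 (8), and 0 of 20 in replicate 2. Genes of PPARG signalling and alternative activation had 3 of 23 and 4 of 24. Lpl was shared, Hif1a (6) and Cd36 were in replicate 1, and Arg1, the arginase of alternatively activated macrophages (23), Il4ra (15 over 2 peaks) and Pparg (6) were in replicate 2. Classical activation genes had 0 of 13 and 1 of 14 (Stat2, 7 tags). TSC and mTORC1 pathway genes had 2 of 30 and 3 of 28, with Rptor in both, Tbc1d7 (4) in replicate 1, and Gsk3b (24) and Foxo3 (10) in replicate 2. Of reported IGF2BP targets, 3 of 12 and 1 of 10 had a 5' UTR peak. Hk2, which encodes hexokinase 2, was shared with 8 and 12 tags and its summit was at the same base, 82774190 on chromosome 6, in both libraries. Myc (14) and Hmga1 (11) had theirs in replicate 1. No test of these groups was made, and each count is of 4 genes or fewer.

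The labelled cell type was checked against marker genes. Of 9 macrophage markers 7 had a sense peak in each library, led by Mrc1 (1030 and 1880 tags) and Csf1r (932 and 1421); Lyz2 had none in either. Of markers of T cells, B cells, neutrophils, dendritic cells and fibroblasts, 4 each, replicate 1 had peaks for Cd3e (3 tags), Pax5 (3) and Col1a2 (9), and replicate 2 for none. Opposite-strand peaks overlapped 1.38% and 1.92% of the 5' UTR peaks within the same library, against 0.999% and 1.17% of all peaks.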

How the data were processed

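The submitters' processing notes name bcl2fastq, TopHat2 and build GRCm38. Which program called the peaks, at what threshold and whether against input is not given in the sources used here. For each peak the authors deposited, per the file headers, a tag count (whole numbers, lowest 3), a maximum height (a coverage signal, the tags stacked at the highest base), start, end and summit, region shares and a gene identifier. Start, end and summit were read as 1-based. No input value, fold or p-value was in the files used, so the library depth is unknown, a count is no enrichment, and binding and mRNA abundance cannot be told apart. Identifiers without version were matched to GENCODE release 21 for mouse (14249 of 14289 and 20632 of 20681 peaks). The principal transcript was that of best APPRIS rank, then completeness, support level and CDS length. Python 3.11.15, pandas 2.3.3, numpy 2.4.6 and scipy 1.17.1 were used; the overlap count was checked against bedtools 2.31.1 on simulated data. Intervals are exact binomial (Clopper-Pearson) at 95% and cover counting error only; those of medians are from order statistics. No test between groups was possible with 1 group of 2 libraries. Named genes were the 20 highest by mean rank among genes with overlapping 5' UTR peaks, the 3 strongest unshared peaks per library, up to 4 members per list, and Tsc1, Pparg and Igf2bp2; other genes were named after their values were seen. Peaks, lists and rules were chosen with earlier results of these data known.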

Additional observations from a re-analysis of the deposited data

How the results depend on the processing

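Leaving out ties changed no value beyond its interval or by over 1.5 times. Requiring a 5' UTR share of at least 75% left 220 peaks in replicate 1 and 280 in replicate 2, with CDS in 26.4% and 23.2% of them, and 58 genes in both libraries. With at least 6 tags, 51.4% and 31.7% were overlapped in the other library; with only a 5' UTR peak counted as partner, 32.0% and 22.2%; with overlap of 50% of both peaks, 28.7% and 19.7%. The first exon held the midpoint of 69.7% and 68.2%, and held the summit of 74.1% and 69.2% on the transcript whose 5' UTR covered most of the peak, which was added with the values in view, after seeing the data. By maximum height in place of tags the median in replicate 2 was 7, and 16 of 40 values of the 20 named genes moved beyond the counting error of their tags. Among these, BC005537 had heights of 26 and 41, Lpl 59 and 60, Nrp2 11 and 23, and Anpep 44 in replicate 2. GGACT in place of GGAC was in 23.6% and 25.4% of peaks with sequence, which its added base can only lower. The stricter share, tag and overlap rules act by their construction, as does maximum height, which cannot exceed the tag count. The best-covering transcript was chosen by its 5' UTR bases under the peak, which favours a summit in one of its exons. For the other shifts the cause was not tested. Ignoring strand, keeping only summits in exons of the principal transcript (added likewise) and taking the reference annotation at the midpoint (372 and 541 peaks) moved no value past those limits. No paired analysis was possible because only IP libraries had files, in a single group. Leaving out a replicate gives the other library's own values, stated throughout, and no gene count in both. With 7 and 9 tags in the median peak, a peak missing from a library cannot be told apart from too few reads.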

Other observations

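The ends of 5' UTR peaks often fell at annotated exon ends. At least 1 end coincided with an exon end of the same gene, to the base, in 102 of 363 peaks of replicate 1 (28.1%, exact binomial interval 23.5 to 33.0) and 153 of 522 of replicate 2 (29.3%, 25.4 to 33.4). For CDS peaks the share was 57.6% and 58.5%, and for 3' UTR peaks 5.03% and 5.28%. It was the 3' end of the peak in 85 and 124 of the 5' UTR peaks. Both ends coincided in 4 5' UTR peaks of each library, and in 10 of 6329 and 16 of 8672 CDS peaks. Whether peak starts lie 1 base off the exon edges was not tested. If they do, these counts of coinciding ends are too low. Among the 117 overlapping pairs, 44 (37.6%) had the same start or the same end in both libraries and 6 had both: those of Pld3, Azin1, Shisa5, Itsn1, Ociad1 and Atp5g3. The part of exon ends in the overlap between libraries was not tested. The summit was the first or last base of the peak in 10.5% and 9.58% of 5' UTR peaks, against 17.9% and 17.3% of CDS peaks.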
